A study of Mus musculus with 2 samples.

Results

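Germline and meiosis genes were examined as a set in mouse embryonic stem cells with and without an EWS-OCT4A fusion. The set is a named list of 40 genes of germ cell development, the piRNA pathway and meiosis. It was put together with earlier results of these data known, so its counts are a description and not independent evidence of a direction. Of these, 39 had a probe set of their own on the array, among 22180 genes measured that way. The missing member was Sycp3, whose probe set is also annotated to Chpt1 and was not attributed to either gene. The study compared mouse embryonic stem cells of the Niwa EWS-OCT4A-GFP stable cell line (the fusion line) with those of the Niwa-GFP stable cell line (the control). EWS-OCT4A joins the EWS protein to OCT4A, the pluripotency form of the POU transcription factor OCT4. The cells were kept in stem cell medium containing LIF, and each line was given doxycycline at 1 µg/ml, which lowers its endogenous OCT-4. Each group held 1 sample on an expression array, so no difference has a replicate check, no p-value is given and values are described by size. No sample without doxycycline was included, so a higher value in one line cannot be told apart from a lower value in the other. The sources used here state neither the duration of the treatment nor whether a line is a single clone.

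Germ cells descend in the mouse from early embryonic cells that regain parts of the pluripotency programme, then switch on RNA-binding proteins such as DDX4 and DAZL and, later, the machinery of meiosis. In meiosis, cohesins with germline subunits hold sister chromatids along an axis, SPO11 breaks the DNA, DMC1 pairs it with the homologous chromosome, and the synaptonemal complex joins the homologues. PIWI proteins and their tudor-domain partners meanwhile use piRNAs to silence transposons. In embryonic stem cells many of these genes are held down by promoter DNA methylation and by a polycomb complex that contains E2F6, MGA, MAX and PCGF6, although a few are transcribed there.

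Some of the list was higher in the EWS-OCT4A-GFP sample, led by the germ cell transcription factor gene Sohlh2, the receptor gene Kit, the ribosomal protein retrogene Rpl10l and the tudor-domain gene Tdrd12. Of the 39 measured members, 9 were at least 2-fold higher in the EWS-OCT4A-GFP sample and 2 at least 2-fold lower, where 2-fold is a log2 difference of 1 and the higher value of the pair had to reach 4.10, the median of all deposited values on both arrays (called the floor here). The members' shares were 23.1% and 5.13%. In such bulk RNA a smaller share of cells with a transcript and less of it per cell cannot be told apart. Over all 22180 genes the same rule gave 5.68% higher and 7.25% lower. The median difference of the members was 0.37 on the log2 scale, against 0 for all genes, and 25 of 39 lay above 0 (64.1%, against 49.6% of all genes). The remaining 28 members stayed within 2-fold, and 9 of the 39 read under the floor in both samples (23.1%, against 39.1% of all genes). With values under the floor raised to it, an alternative added after seeing the data, 7 members were 2-fold higher and the median difference of the members was 0.10.

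**Figure D1:**
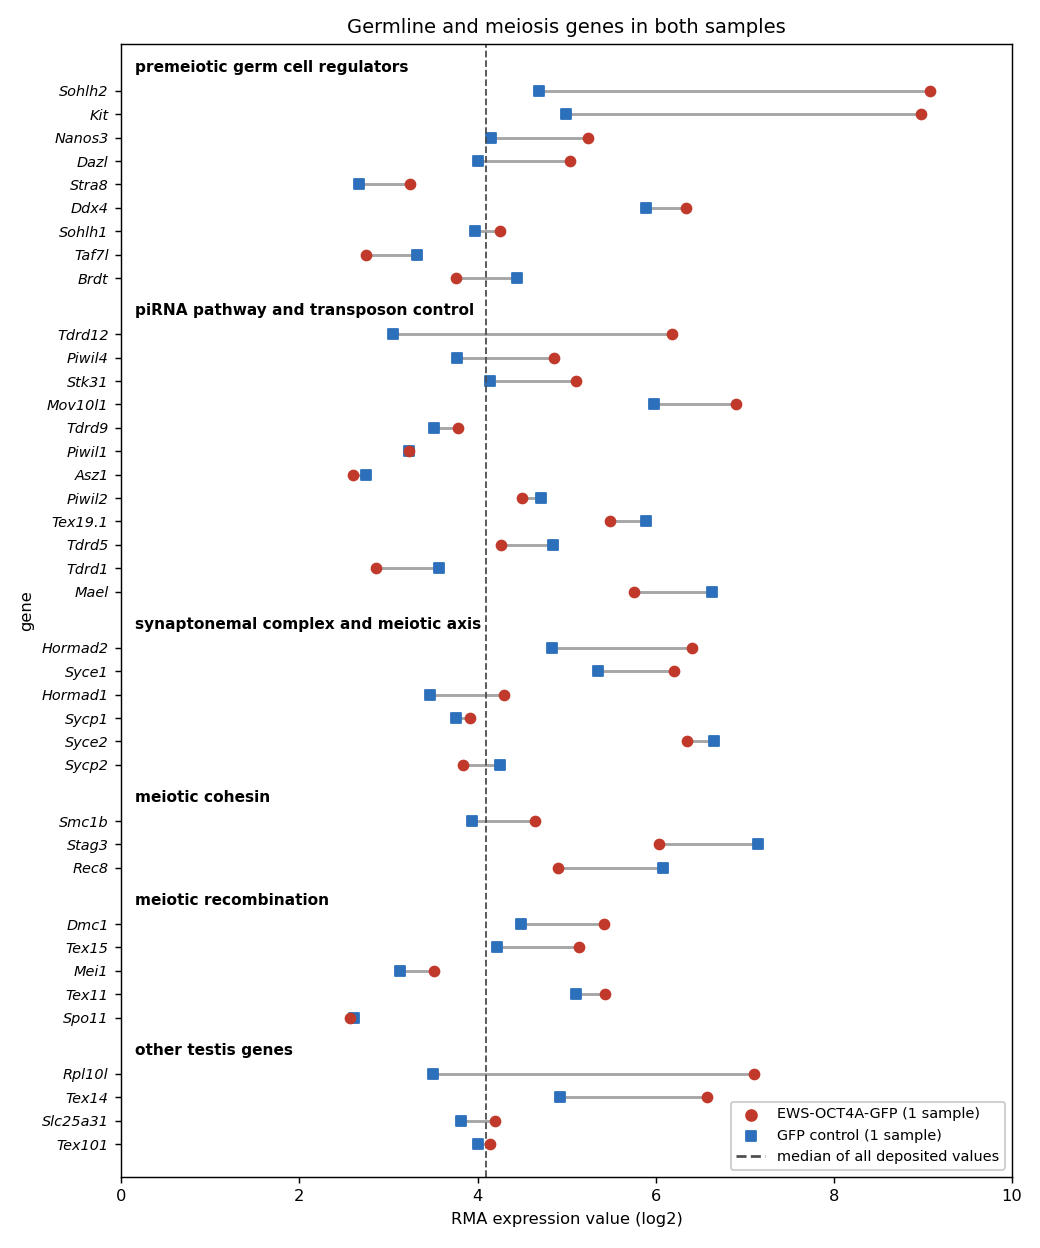
RMA value on the log2 scale (horizontal axis) of each of the 39 measured germline and meiosis genes in the EWS-OCT4A-GFP sample (red circle) and the GFP control (blue square), by role group and ordered by difference. The dashed line is the median of all deposited values, 4.10. Sohlh2, Kit, Rpl10l and Tdrd12 have the longest connecting lines, all with the EWS-OCT4A-GFP value on the right, and only Rec8 and Stag3 are longer than 1 unit in the other direction.

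Among regulators that act before meiosis, 4 of 9 (44.4%, against 5.68% of all genes) were at least 2-fold higher and none was 2-fold lower. Sohlh2 (probe set 17397695), a basic helix-loop-helix factor of spermatogonia and early oocytes, read 9.08 in the fusion line and 4.69 in the control. The log2 difference was 4.39, or 21.0-fold, larger than that of 99.9% of all genes. Its partner gene Sohlh1 read 4.25 and 3.98, a difference of 0.27, so 1 gene of the pair passed 2-fold.

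Kit (probe set 17438272), the receptor tyrosine kinase that migrating germ cells need, read 8.98 in the fusion line and 4.998 in the control. The difference was 3.98, or 15.7-fold. Kitl, which encodes the ligand of this receptor, went the other way, with 3.52 and 7.24, a difference of -3.73. The receptor reading was the higher in the fusion line and the ligand reading in the control.

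Nanos3, an RNA-binding protein gene needed for the survival of primordial germ cells, read 5.25 and 4.15, a difference of 1.098. Dazl, which encodes an RNA-binding protein of germ cell commitment, read 5.04 in the fusion line and 4.01 in the control. Its difference of 1.03 only just reached 2-fold, and it was 0.94 with the control value raised to the floor, 0.999 after median centring and 0.99 after loess centring. Both genes lay close to the 2-fold line.

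Ddx4, the germ cell RNA helicase gene also known as Vasa, was above the floor in both samples with 6.34 and 5.89, a difference of 0.45. Stra8, the retinoic acid-induced gene of meiotic entry, read 3.24 and 2.67, under the floor in both. Taf7l, a germline subunit gene of the general transcription factor TFIID, was also under the floor in both (2.74 and 3.32). Brdt, a testis bromodomain protein gene, read 3.76 and 4.44, a difference of -0.68. All 4 of these genes stayed within 2-fold, and Stra8 and Taf7l had no reading above the floor.

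In the piRNA pathway, 2 of 12 members were at least 2-fold higher, none was 2-fold lower, and the median difference was -0.08. Tdrd12 (probe set 17489768), which encodes a tudor-domain helicase that works with PIWI proteins, read 6.19 in the fusion line and 3.05 in the control. The difference was 3.14, or 8.79-fold, and 4.26-fold with the control raised to the floor. Piwil4, the gene of the nuclear PIWI protein MIWI2, read 4.86 and 3.77, a difference of 1.09 that dropped to 0.76 with the control raised to the floor.

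None of the other tudor-domain members reached 2-fold. Tdrd1 read 2.86 and 3.57 and Tdrd9 3.78 and 3.51, all under the floor. Tdrd5 read 4.27 and 4.85, a difference of -0.58. Stk31, which encodes a tudor-domain protein with a kinase-like region, read 5.10 and 4.14, a difference of 0.97 that fell just short of 2-fold. The tudor-domain genes of this list thus ranged from -0.71 (Tdrd1, under the floor in both samples) to 3.14 (Tdrd12).

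The other members of the piRNA group, with the PIWI genes Piwil2 and Piwil1 among them, differed less than Tdrd12 and Piwil4. Mov10l1, the helicase gene of piRNA production, read 6.90 in the fusion line and 5.99 in the control, a difference of 0.91. Mael, a gene of transposon silencing in germ cells, was lower, at 5.75 and 6.63, a difference of -0.88. Tex19.1, which restrains retrotransposons and is known to be transcribed in stem cells, read 5.48 and 5.89. Piwil2, the gene of the cytoplasmic PIWI protein MILI, read 4.49 and 4.71. Piwil1, which acts in later spermatogenesis, had the same value of 3.23 in both samples, and Asz1 read 2.60 and 2.75. None of these 6 genes reached 2-fold, and their signs were mixed.

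Of the 6 measured genes of the synaptonemal complex and its axis, 1 (16.7%, against 5.68% of all genes) was at least 2-fold higher. Hormad2 (probe set 17259975), whose product marks axes that have not synapsed, read 6.40 in the fusion line and 4.84 in the control, a difference of 1.57 or 2.96-fold. Its relative Hormad1 read 4.29 and 3.47, a difference of 0.83 that dropped to 0.20 with the control raised to the floor. Syce1, a central element gene, differed by 0.86 (6.21 and 5.35), and Syce2, of the same element, by -0.30 (6.35 and 6.65). Sycp1, the transverse filament gene, read 3.91 and 3.76, and Sycp2, of the lateral element, 3.83 and 4.25. The differences of Syce1 and Syce2 had opposite signs, both within 2-fold. The probe set shared by Sycp3 and Chpt1 read 6.21 and 6.003.

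Of the 6 role groups, only the germline cohesin genes had members at least 2-fold lower, 2 of 3 (66.7%, against 7.25% of all genes). Rec8 (probe set 17300608), the meiotic kleisin that replaces the mitotic subunit, read 4.90 in the fusion line and 6.09 in the control, a difference of -1.18, or 2.27-fold lower. Stag3 (probe set 17443833), which encodes the meiotic STAG subunit, read 6.04 and 7.15, a difference of -1.11. Smc1b, the third germline subunit gene, lay in the other direction with 4.64 and 3.94. Its difference was 0.71, or 0.55 with the control raised to the floor. The subunit genes therefore did not share a direction, although Smc1b stayed within 2-fold. At a 3-fold threshold 0 members were lower.

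None of the 5 recombination genes reached 2-fold, although 4 lay above 0. Dmc1, the strand exchange recombinase gene, read 5.42 in the fusion line and 4.48 in the control, a difference of 0.94. Tex15, which is needed for loading recombinases, read 5.14 and 4.22, a difference of 0.92. Tex11, an X-linked crossover gene, read 5.43 and 5.10. Spo11, which encodes the enzyme that starts recombination, read 2.57 and 2.62, and Mei1, needed for the breaks to form, 3.52 and 3.13. Spo11 and Mei1 were under the floor in both samples, while Dmc1, Tex15 and Tex11 were at or above it in both.

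The last group holds 4 testis genes of other roles, of which 2 (50%, against 5.68% of all genes) were at least 2-fold higher. Rpl10l (probe set 17281455), an autosomal retrogene that stands in for the X-linked ribosomal protein gene Rpl10 during meiosis, read 7.10 in the fusion line and 3.50 in the control. The difference was 3.60, or 12.1-fold, and 8.02-fold with the control raised to the floor. Rpl10l is closely similar to Rpl10 and its processed copies, so probes may be shared and the value is uncertain as to the gene. Tex14 (probe set 17254707), which keeps the bridges between dividing germ cells open, read 6.57 and 4.93, a difference of 1.65 or 3.13-fold. Slc25a31, the germ cell ADP/ATP carrier gene, differed by 0.37 (4.19 and 3.82), and Tex101, a germ cell surface protein gene, by 0.14 (4.14 and 4.0).

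The 9 higher members fell into 4 with a difference of at least 3 (Sohlh2, Kit, Rpl10l and Tdrd12) and 5 between 1 and 2. A further 7 members lay between 0.7 and 1 (Stk31, Dmc1, Tex15, Mov10l1, Syce1, Hormad1 and Smc1b), so the count depends on where the line is drawn. At 1.5-fold, 16 members were higher and 4 lower, beside 12.2% and 12.6% of all genes. At 3-fold, 5 were higher and 0 lower, beside 2.09% and 3.54%. Every member has a single probe set of its own, so no second probe set checks any of these values.

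**Figure D2:**
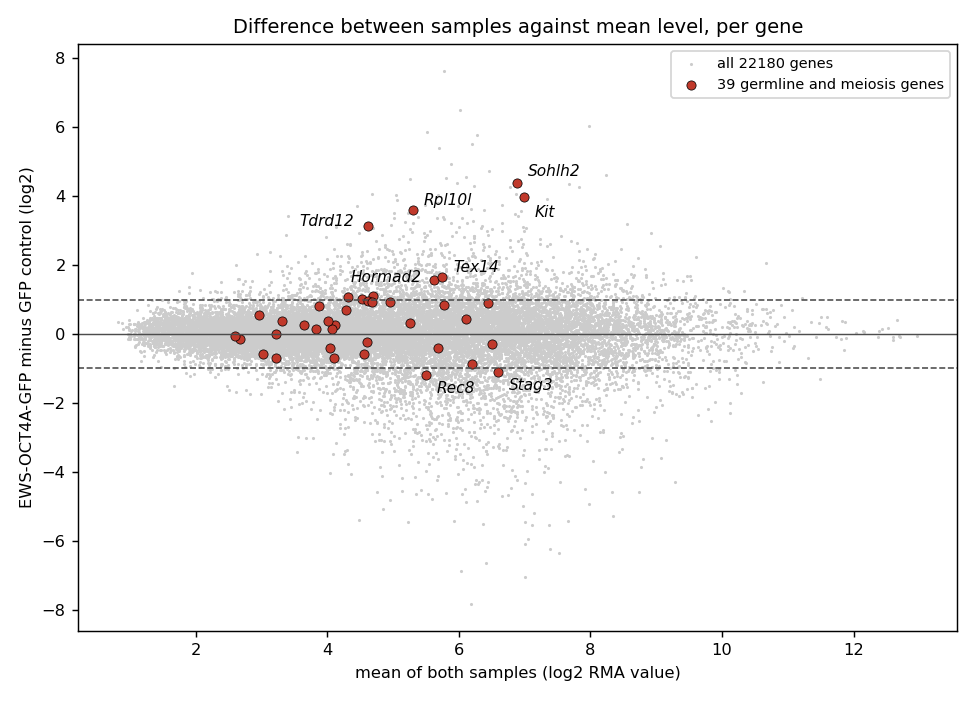
Difference between the samples on the log2 scale (vertical axis) against the mean of both samples (horizontal axis) for all 22180 genes (grey) and the 39 germline and meiosis genes (red), with dashed lines at 2-fold. Sohlh2, Kit, Rpl10l and Tdrd12 lie between 3.14 and 4.39, and most other members lie within the dashed lines.

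The higher members were spread over the genome, and 14 of their 18 measured neighbours stayed within 2-fold. The 9 genes lie on 8 chromosomes. Of the 18 nearest measured protein-coding genes on both sides, 2 were at least 2-fold higher and 2 lower. These were 11.1% each, against 5.68% and 7.25% of all genes, and the median difference was -0.15. Ccdc169, Dclk1, Plcl2, Slc7a9, Wdr20rt and Mdga2 read under the floor in both samples, so the rule could not call them. The neighbours of Sohlh2, namely Ccdc169 (2.58 and 2.70) and Dclk1 (2.04 and 2.38), differed by -0.12 and -0.34, with every value under the floor. Beside Kit, Pdgfra differed by -1.15 and Kdr by -0.21. Tex14 lies beside Rad51c, a recombination gene, which was higher as well (6.22 and 4.48, a difference of 1.74). Tdrd12 lies beside Nudt19, which was higher by 1.02. Hormad2 was higher although its neighbour Lif was lower, with a difference of -1.15.

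Promoter sequences were set beside these differences because many germline genes are silenced through binding sites near their start. Windows of 300 bases, from 250 before to 50 after the start of a gene, came from RefSeq on GRCm38.p6 and matched 35 of the 39 members. A gene with several windows counted as holding a motif if any of them did. The letters searched on both strands were CACGTG (the E-box bound by MAX and MGA, which reads the same on both strands), TCCCGC (an E2F-type site, GCGGGA on the other strand) and ATGCAAAT (the octamer bound by OCT4, ATTTGCAT on the other strand). The windows shown are the 4 members with the largest differences, then 2 members within 2-fold that hold E-boxes, each written 5′ to 3′ with motifs in capitals. They lie at chr3:55181794-55182093, plus strand for Sohlh2, chr7:35537666-35537965, minus strand for Tdrd12, chr12:66284352-66284651, minus strand for Rpl10l, chr5:75574737-75575036, plus strand for Kit, chr2:25847199-25847498, minus strand for Sohlh1 and chr1:166238695-166238994, minus strand for Mael.
Sohlh2: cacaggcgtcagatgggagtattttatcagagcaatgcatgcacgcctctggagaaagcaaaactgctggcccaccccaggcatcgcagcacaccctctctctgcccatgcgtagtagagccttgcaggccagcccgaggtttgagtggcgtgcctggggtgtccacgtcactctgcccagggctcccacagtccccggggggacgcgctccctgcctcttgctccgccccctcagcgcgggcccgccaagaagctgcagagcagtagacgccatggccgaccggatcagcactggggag
Tdrd12: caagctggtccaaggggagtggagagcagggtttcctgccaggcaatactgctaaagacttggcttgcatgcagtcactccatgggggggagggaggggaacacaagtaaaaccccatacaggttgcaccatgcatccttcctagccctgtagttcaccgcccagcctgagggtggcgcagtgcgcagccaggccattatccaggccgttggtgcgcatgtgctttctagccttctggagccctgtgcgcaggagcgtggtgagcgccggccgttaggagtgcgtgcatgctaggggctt
Rpl10l: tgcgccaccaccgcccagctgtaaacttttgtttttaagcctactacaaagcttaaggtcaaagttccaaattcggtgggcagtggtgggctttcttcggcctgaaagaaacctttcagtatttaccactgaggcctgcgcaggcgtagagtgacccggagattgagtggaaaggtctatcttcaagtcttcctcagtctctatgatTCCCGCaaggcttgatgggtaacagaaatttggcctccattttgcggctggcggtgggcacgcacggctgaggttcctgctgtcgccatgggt
Kit: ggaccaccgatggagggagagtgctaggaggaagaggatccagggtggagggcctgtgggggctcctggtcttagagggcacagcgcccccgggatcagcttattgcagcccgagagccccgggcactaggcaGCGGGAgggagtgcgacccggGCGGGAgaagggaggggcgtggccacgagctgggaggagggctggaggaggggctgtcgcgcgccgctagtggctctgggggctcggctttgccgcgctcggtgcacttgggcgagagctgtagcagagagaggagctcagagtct
Sohlh1: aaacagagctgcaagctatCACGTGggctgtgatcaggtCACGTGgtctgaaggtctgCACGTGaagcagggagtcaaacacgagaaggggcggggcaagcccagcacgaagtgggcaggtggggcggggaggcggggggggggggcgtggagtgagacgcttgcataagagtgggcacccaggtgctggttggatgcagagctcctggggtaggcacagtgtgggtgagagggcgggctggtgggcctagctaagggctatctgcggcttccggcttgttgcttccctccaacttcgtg
Mael: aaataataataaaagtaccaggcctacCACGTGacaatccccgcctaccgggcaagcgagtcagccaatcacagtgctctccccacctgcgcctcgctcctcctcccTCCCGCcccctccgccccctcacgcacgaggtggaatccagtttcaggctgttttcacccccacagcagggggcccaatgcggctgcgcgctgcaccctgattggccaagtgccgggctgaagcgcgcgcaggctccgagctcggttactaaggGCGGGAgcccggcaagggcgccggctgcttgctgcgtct

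The E-box was in the window of 15 of 35 members (42.9%), against 9.22% of 16918 array genes with a window and 13.5% of the 7380 of those with at least 18 CpG, the members' median. None of the 9 members that were at least 2-fold higher held it, and 15 of the 26 others did (57.7%). At the share of all array genes, 9.22%, few or none of 9 genes would hold it. Of the others, Taf7l, Piwil1, Tdrd1, Tdrd9 and Sycp1 with the E-box read under the floor in both samples. So did Stra8, Asz1 and Mei1 without it, and none of these could be called higher. Sohlh1, which read close to the floor (4.25 and 3.98), held it 3 times, with a difference of 0.27. Its partner Sohlh2 held it 0 times, with a difference of 4.39. The 15 members with the E-box had differences from -1.11 (Stag3) to 0.97 (Stk31) with a median of 0.15. The 20 without it ran from -1.18 (Rec8) to 4.39 with a median of 0.90. This pattern was seen after the values were known and is a description of letters in these windows, not of binding.

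The E2F-type site was in 15 of 35 members (42.9%), above the 28.5% of all array genes with a window but below the 50.1% of those with at least 18 CpG. Those genes had a median of 27 CpG, against 18 for the members, whose lowest count was 3. That set is therefore not matched to the members in CpG, for this site or for the E-box. It was in 3 of the 9 higher members, Kit, Rpl10l and Tex14. The octamer was in 0 of 35 windows, against 1.87% of array genes. At that share, few or none of 35 windows would hold it. The higher members had a median of 16 CpG in the window, from 3 in Nanos3 to 28 in Dazl, and the 26 others a median of 19.5, from 8 to 48.

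**Figure D3:**
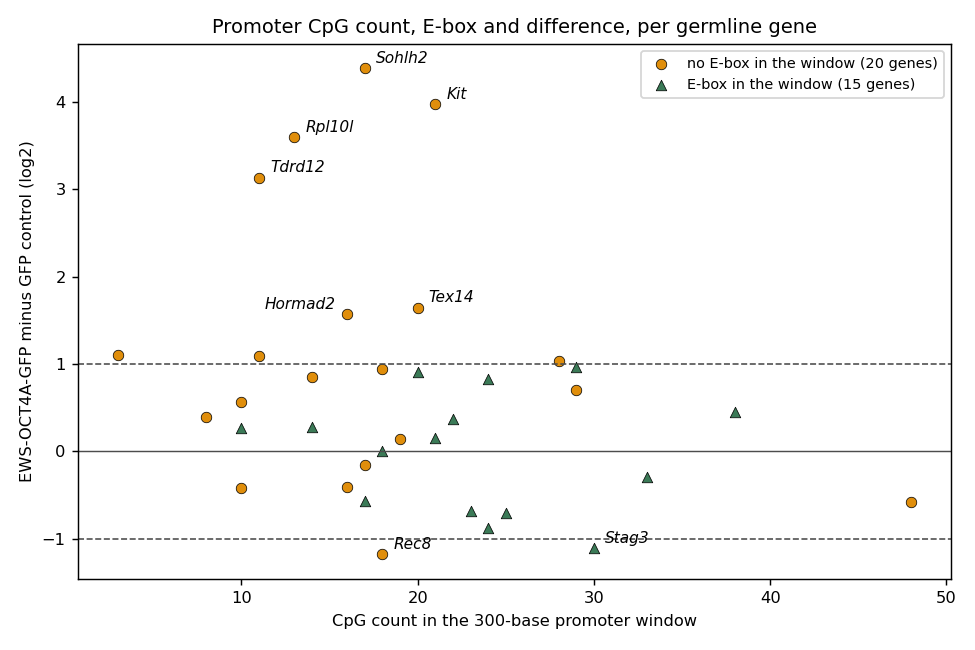
Difference between the samples on the log2 scale (vertical axis) against the number of CpG in the 300-base promoter window (horizontal axis) for the 35 members with a window, split by whether the window holds the E-box (green triangles, 15 genes) or not (orange circles, 20 genes). All points above the upper dashed 2-fold line are circles, and the triangles lie between -1.11 and 0.97.

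Other genes of the same pathways were taken from lists of known members. Of 16 further piRNA pathway genes, 1 was at least 2-fold higher and 1 lower (6.25% each, against 5.68% and 7.25% of all genes). The higher was Pnldc1, which encodes the enzyme that trims piRNAs (6.59 and 5.15, a difference of 1.44). The lower was Tdrkh, another tudor-domain gene (-1.03). Of 27 further meiosis genes, 1 was higher (3.70%) and 0 were lower. The higher gene was Ccnb1ip1, a crossover regulator also called HEI10 (6.49 and 4.75, a difference of 1.74). The medians were -0.06 and 0.27. Spermatid genes gave 0 higher and 1 lower of 21 (4.76%), with 15 of 21 under the floor in both samples. Oocyte genes gave 2 higher of 18 (11.1%), Ooep (7.64 and 4.80) and Zp3 (4.96 and 3.66), with 13 of 18 under the floor in both.

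Primordial germ cell regulators differed more, with 10 of 18 at least 2-fold higher (55.6%), 3 lower (16.7%) and a median of 1.38. Prdm14, a zinc finger gene of germ cell specification, read 6.55 in the fusion line and 3.89 in the control. Dppa3, also called Stella, read 5.83 and 4.41, and Ifitm3, also called Fragilis, 8.61 and 5.19. Prdm1, which encodes BLIMP1, read 5.80 and 5.65. Tfap2c, which serves both germ cells and trophoblast, was lower (6.96 and 8.90), as were Cxcr4 (-1.73) and Kitl. The germ cell genes Nanos2 (-0.50) and Dnd1 (0.23) stayed within 2-fold. The largest differences on this list were those of Gdf3 (4.53) and Tcl1 (3.71), which are also known as stem cell genes, as is Nr5a2 (1.33). Esrrb, Klf2 and Zfp42 stand on the list of pluripotent cell markers too, so these 6 of the 10 higher genes are not separate from the stem cell state. Whether the remaining higher genes, Prdm14, Dppa3, Ifitm1 and Ifitm3, are separate from it was not tested.

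The repressors of germline genes gave 6 of 26 at least 2-fold higher and 1 lower (23.1% and 3.85%), with a median of 0.19. The members' share higher was also 23.1%, against 5.68% of all genes. Of the genes of the E2F6 complex, E2f6 (-0.69), Mga (0.06), Max (-0.12), L3mbtl2 (0.42) and Pcgf6 (0.25) stayed within 2-fold, while Yaf2 was lower (4.79 and 6.06, a difference of -1.27). The maintenance DNA methyltransferase gene Dnmt1 read 8.47 and 9.42, a difference of -0.95, and its targeting partner Uhrf1 differed by 1.15. Dnmt3l, a cofactor of DNA methylation in germ cells, differed by 1.49 and the corepressor gene Trim28 by 1.57. The heterochromatin protein genes Cbx1 and Cbx3, the second also tied to the E2F6 complex, differed by 1.24 and 1.104. Cbx3 has 4 probe sets of its own, and its value is from the one with the highest mean. The largest difference on this list was that of Tet1, with 9.95 in the fusion line and 5.70 in the control (4.25). Tet1 encodes an enzyme that oxidises methylated cytosine and so works against methylation. It is among the 6 higher genes, so that count does not cover repressors alone. Retinoic acid response genes gave 0 higher and 4 lower of 14 (28.6% lower, against 7.25% of all genes), with Tgm2 at -3.24 and Stra6 at -1.97.

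**Figure D4:**
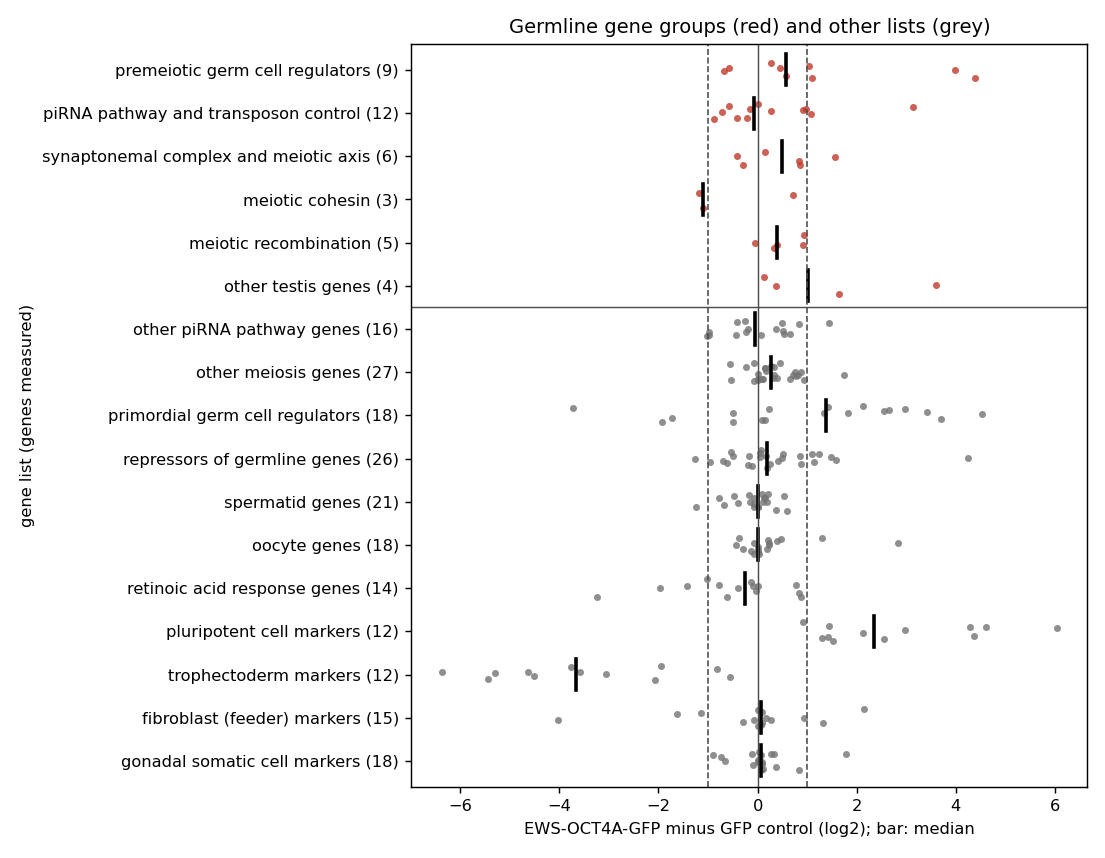
Difference between the samples on the log2 scale for each gene (points) and its list median (black bar), for the 6 role groups of the germline genes (red) and 11 other lists (grey), with the number of genes measured in brackets and dashed lines at 2-fold. Medians of the germline role groups run from -1.11 (meiotic cohesin) to 1.01 (other testis genes), those of the further piRNA and meiosis genes are -0.06 and 0.27, and pluripotent cell markers have a median of 2.34 and trophectoderm markers one of -3.67.

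The state of the cells also differed between the samples. Of 12 pluripotent cell markers, 11 (91.7%, against 5.68% of all genes) were at least 2-fold higher in the EWS-OCT4A-GFP sample. The list median was 8.998 there and 5.79 in the GFP control. Of 12 trophectoderm markers, 10 (83.3%, against 7.25% of all genes) were at least 2-fold lower, with list medians of 4.39 and 7.92. The stem cell markers of the label were thus lower in the GFP control, and the part of this shift in the germline differences was not tested. Markers of gonadal somatic cells gave 1 higher of 18 (Inhbb, 5.56%, close to the 5.68% of all genes) and 0 lower. Of these 18, 9 were under the floor in both samples, among them Amh (3.61 and 3.52) and Cyp17a1 (3.13 and 3.10). Fibroblast markers, for feeder cells, gave 2 higher and 3 lower of 15 (13.3% and 20%, against 5.68% and 7.25% of all genes). Their median of 0.07 covers differences in both directions. Postn (2.03 and 6.06, a difference of -4.04), Acta2 (-1.64) and Pdgfra (-1.15) were lower, Vim (2.15) and Fn1 (1.33) were higher, and the collagen genes Col1a1, Col1a2 and Col3a1 differed by -0.08, 0.07 and -0.28. The part of these genes in the germline differences was not tested. Pou5f1 read 5.37 and 5.24, and the sources used here do not say whether its probe set detects the fusion.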

How the data were processed

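The authors deposited 1 table of log2 values, with 33793 probe sets and a column per sample. They are RMA summaries from Affymetrix Expression Console 1.1, per the submitters' processing notes. The log2 base is inferred from RMA, since the file does not state it. RMA quantile-normalizes arrays, which hides a shift of most transcripts, and compresses differences between low values. No detection call was used, so the distance of a value from background is unknown. The design text says that experiments were duplicated, yet each line has 1 column, and the sources used here do not say whether a column averages arrays. Their small number limits the precision.

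The platform annotation gave the names: 23521 had 1 gene symbol, 1814 several and 8458 none. Per gene, the single-symbol probe set with the highest mean of both columns was used. All 39 measured members matched a RefSeq gene (GRCm38.p6) with the same symbol. Differences are EWS-OCT4A-GFP minus GFP control. The call rule was a log2 difference of at least 1 with the higher value at or above 4.10, and shares are over every measured gene. The members and lists were chosen with earlier results of these data known. By the rule for named genes, every member is accounted for, and of other lists the genes past 2-fold may be named. Genes named within 2-fold on other lists, neighbours and the split by E-box were picked after values were seen. Other settings covered the size threshold, the floor, the normalization (median, quantile, and loess with a span of 0.3) and the probe set rule. The calling procedure was tested on simulated data as a check of its code only, and the noise between arrays was not tested. Python 3.11.15, numpy 2.4.6, pandas 2.3.3 and statsmodels 0.14.6 were used.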

Additional observations from a re-analysis of the deposited data

How the results depend on the processing

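No paired analysis was possible because there is 1 sample a group, and no replicate could be left out. The size threshold moved the counts. At 1.5-fold, 16 members were higher and 4 lower, beside 2708 and 2784 of all genes. At 3-fold, 5 members were higher and 0 lower, beside 464 and 786 genes. With the floor at the 75th percentile (5.80) or at a log2 value of 6, 6 members stayed higher and Nanos3, Dazl and Piwil4 no longer reached the floor. Median and loess centring left 8, without Dazl (0.999 and 0.99). With values under the floor raised to it, chosen after seeing the data, 7 remained and the median difference of the members was 0.10 in place of 0.37. Under the other settings run, the member counts were 9 and 2. Some of these could not have lowered the counts. Every member has a single probe set, so the probe set rules could not change its value, and dropping the floor could not remove a call. Kit, Sohlh2, Tdrd12, Tex14 and Rpl10l were at least 2-fold higher in every setting, and 3-fold in the one that asked for it. Signal over background is unknown, which limits what can be said of members near the floor.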

Other observations

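Some readings were equal in both columns to all 3 deposited decimals. This held for 949 of 22180 genes (4.28%), of which 781 (82.3%) read under the floor, and the highest such value was 9.11. Piwil1 was the 1 such member, and Ldhc, Pgk2, Zp1, Figla, Lhx8 and Tex12 were others from the germ cell lists that read under the floor. Terb2 (4.15) and Syce1l (4.17) were equal in both and read above it. The cause was not tested.

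Odf1, a gene of the sperm tail, read 9.92 in the fusion line and 10.3 in the control, although 15 of the 21 spermatid genes read under the floor in both samples. Odf1 has 2 probe sets of its own, and this value is from the one with the higher mean. The sources used here do not say whether that probe set reports this transcript alone.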
